A study of Mus musculus with 6 samples.

Results

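The fibroblast growth factor (FGF) receptors and the FGF ligands of skin were followed as a set of 10 genes, chosen by their symbols: the receptors Fgfr1, Fgfr2, Fgfr3 and Fgfr4, the ligands Fgf1, Fgf2, Fgf5, Fgf7 and Fgf18, and the secreted binding protein Fgfbp1. All 10 were found among the 36528 gene models of the files. The libraries hold polyadenylated RNA of primary mouse melanocytes from skin, with 3 libraries labelled BAP1 KO (knockout of Bap1, a deubiquitinase of the nucleus) and 3 labelled WT (wild type). The labels name no strain, age, culture medium or way of removing Bap1. They do not say that replicates came from separate animals or cultures, so a p-value speaks only of the spread among these 6 libraries, and that spread may be technical. Replicates are numbered by order of submission and carry no pairing.

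FGF ligands bind the outer part of their receptors together with heparan sulfate, which brings receptor chains together and switches on their tyrosine kinases. The signal runs through the docking protein FRS2 to RAS and ERK and through phospholipase C gamma, and it induces its own inhibitors. In skin, FGF2 is a growth factor for melanocytes that keratinocytes and fibroblasts supply, FGF7 is made by dermal fibroblasts and acts on a splice form of FGFR2 in keratinocytes, FGF5 ends the growth phase of the hair follicle, and FGFBP1 frees stored FGFs from the matrix. Gene counts do not separate the splice forms of a receptor.

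Library totals ran from 33987690 to 43773769 reads, and the 10 genes took at most 0.0311% of the reads of a library. Bap1 itself was read at 20.2, 21.1 and 19.8 normalized RPKM (the authors' reads per gene, scaled by gene length and library and adjusted by a size factor) in the BAP1 KO-labelled libraries and at 14.98, 14.6 and 15.1 in the WT-labelled ones, so the targeted gene was not lower where the label says knockout (log2 fold change 0.42, edgeR adjusted p = 3.89e-06). Its reads are pooled over all exons, and every direction below rests on the labels. Melanocyte markers (13 genes) summed to 63579 to 64401 CPM (counts per library size) in the BAP1 KO-labelled libraries and 6725 to 6802 CPM in the WT-labelled ones, and all 13 were higher, with a median log2 fold change of 2.76. Keratinocyte markers (15 genes) summed to 477 to 521 CPM against 8308 to 8399 CPM, and all 14 tested were lower (median -4.13). Fibroblast markers (14 genes) summed to 168 to 181 CPM against 1211 to 1246 CPM, with 12 lower and 1 higher of 13 tested (median -2.80). None of these markers was at 0 reads in either group, and in the WT-labelled libraries the keratinocyte sum was above the melanocyte sum. Immune markers were 5 higher and 2 lower of 7 tested (median 0.84; Cd3e had 0 reads in the BAP1 KO-labelled libraries), endothelial markers 2 higher and 1 lower of 3 (median 0.41), and Schwann cell markers 5 higher and 1 lower of 7 (median 0.62). Over all genes tested 39.4% were higher and 42.1% lower, so the immune, endothelial and Schwann cell counts say little by themselves. The fibroblast marker Lum, the immune marker Cd74 and the endothelial marker Pecam1 were called lower. They passed the count filter only through the WT-labelled libraries, so these calls carry little weight. In bulk RNA, fewer cells of a type and less RNA per cell cannot be told apart, and the part of these marker shifts in the FGF results was not tested.

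Of the 10 genes, Fgfr3 was higher in the BAP1 KO-labelled libraries, 8 were lower, and Fgf5 did not pass the test (edgeR quasi-likelihood test, Benjamini-Hochberg adjusted p under 0.05 over 17121 genes). Over all genes tested 81.5% were called in either direction, 39.4% higher and 42.1% lower, so that being called says little by itself. The median log2 fold change of the 10 genes was -0.89, against -0.03 over all genes tested. The 6 values of each gene did not overlap between the labels for any of the 10, where 82.7% of all tested genes showed no overlap. Fgfr4 and Fgf18 passed the filter on low counts only through the WT-labelled libraries, so a difference in them was bound to appear. Of the 8 genes that reached the minimum in every library, 6 fell and 1 rose (median -0.61, against 0.04 over the 14848 genes that did so).

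The regulatory sequence of the gene that rose and of the most abundant ligand-handling gene that fell are shown for context, as RefSeq gives the 250 bases before their annotated starts on GRCm38.p6. Capitals mark the GC box GGGCGG on either strand. The window shown for Fgfr3 is chr5:33721474-33721723 on the plus strand, and that of Fgfbp1 is chr5:43981800-43982049 on the minus strand. Another Fgfr3 window, chr5:33722056-33722305, lies within the gene span, holds 2 GC boxes and is not shown. The Fgfbp1 window overlaps the end of its gene span, which reaches 43981828.
Fgfr3: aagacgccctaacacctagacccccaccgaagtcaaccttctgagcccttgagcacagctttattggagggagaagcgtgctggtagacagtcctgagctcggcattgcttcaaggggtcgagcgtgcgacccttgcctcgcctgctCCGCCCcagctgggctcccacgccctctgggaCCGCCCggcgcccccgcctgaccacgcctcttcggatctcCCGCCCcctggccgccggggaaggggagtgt
Fgfbp1: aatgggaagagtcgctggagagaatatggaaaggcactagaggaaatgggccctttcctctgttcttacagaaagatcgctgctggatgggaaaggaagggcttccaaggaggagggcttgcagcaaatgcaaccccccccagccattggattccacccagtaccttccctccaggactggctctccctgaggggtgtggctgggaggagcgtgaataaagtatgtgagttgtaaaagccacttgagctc
The Fgfr3 window shown holds 3 GC boxes and the Fgfbp1 window 0. RefSeq windows of 8 of the 10 genes were searched, with 9 windows in all. No window of Fgfr1 or Fgf1 was searched, so the motif counts do not cover those genes. A GC box was in 6 of these 9 windows (66.7%), those of Fgfr3, Fgfr4, Fgf2, Fgf5 and Fgf18, and in 32.7% of all 32851 promoter windows of this length. Searched on both strands, TATAAA (12.4% of all windows), the AP-1 site TGACTCA (4.46%), the E-box CACGTG (6.02%) and the related CATGTG that MITF can bind (12.3%) were in 0 of the 9 windows. These are matches of letters only.

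**Figure D1:**
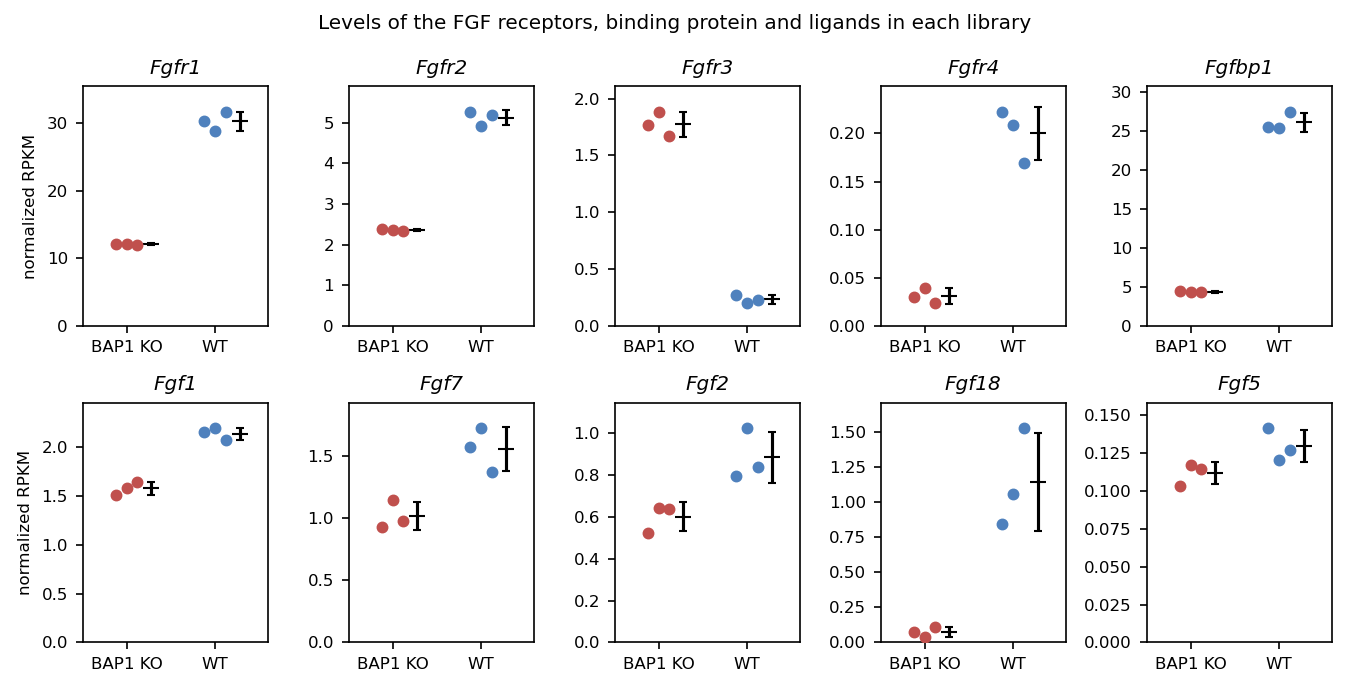
Normalized RPKM of each gene (vertical axes, each from 0) in the 3 BAP1 KO-labelled and the 3 WT-labelled libraries; points are libraries, and the bar beside them is mean ± SD. Fgfr3 lies between 1.67 and 1.89 under the BAP1 KO label and between 0.201 and 0.276 under WT, while the other 9 genes lie lower under the BAP1 KO label.

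Fgfr1 was the most abundant receptor under both labels and was lower in the BAP1 KO-labelled libraries. This receptor (gene ID 14182, chromosome 8, 25518759 to 25575718 on GRCm38) binds FGF1 and FGF2 among others. Its level was 12.1, 12.1 and 11.9 normalized RPKM in BAP1 KO-labelled replicates 1, 2 and 3 and 30.3, 28.9 and 31.7 in the WT-labelled replicates. The 3 BAP1 KO-labelled libraries thus lay within a narrow band well below all 3 WT-labelled ones. The difference was 2.56-fold, with a log2 fold change of -1.36 (SE 0.040; edgeR adjusted p = 1.19e-10). Of its exon bases, 1.66% overlap the antisense gene Gm16159.

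Fgfr2, the receptor whose epithelial splice form binds FGF7 (gene ID 14183, chromosome 7, 130162451 to 130266808), was lower as well. It was read at 2.38, 2.35 and 2.32 normalized RPKM in the BAP1 KO-labelled libraries and at 5.27, 4.91 and 5.19 in the WT-labelled ones. The groups stood apart by 2.22-fold (log2 -1.15, SE 0.052, edgeR adjusted p = 4.48e-09). Of its exon bases, 3.04% overlap Ctbp2 on the same strand. In the same libraries the keratinocyte markers had a median log2 fold change of -4.13. Whether Fgfr2 followed those markers was not tested.

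Fgfr3 went the other way. This receptor restrains growth of cartilage and is also found in epidermis (gene ID 14184, chromosome 5, 33721724 to 33737068). Its level was 1.77, 1.89 and 1.67 normalized RPKM in the BAP1 KO-labelled libraries, from 375, 462 and 344 reads, and 0.276, 0.201 and 0.226 in the WT-labelled libraries, from 56, 45 and 54 reads. Every BAP1 KO-labelled library was thus several-fold above every WT-labelled one. The difference was 7.45-fold (log2 2.90, SE 0.12, edgeR adjusted p = 1.54e-09). The keratinocyte markers went the opposite way, with a median of -4.13, and a link to them was not tested. Of its exon bases in GENCODE M21, 13.9% overlap G630022F23Rik on the other strand. The library type does not mark strand, so reads of that stretch cannot be assigned to either gene. The gene model behind the deposited counts is not known, and a share of bases is not a share of reads. How far the overlap touches the value of Fgfr3 was not tested.

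Fgfr4 (gene ID 14186, chromosome 13, 55152818 to 55168759), a receptor better known from liver and muscle, was close to absent. It drew 4, 6 and 3 reads in the BAP1 KO-labelled libraries and 28, 29 and 25 in the WT-labelled ones. On the scale per length these are 0.0304, 0.0395 and 0.0235 against 0.223, 0.209 and 0.169 normalized RPKM. The log2 fold change was -2.65 (SE 0.31, edgeR adjusted p = 1.35e-05). Because Fgfr4 passed the filter on low counts only through the WT-labelled libraries, this call was largely fixed in advance. Even the highest library thus held very little of this transcript.

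Under the BAP1 KO label the receptors ranked Fgfr1, Fgfr2, Fgfr3 and Fgfr4 per length, with no overlap between neighbours. Under the WT label the order was the same, but Fgfr3 (0.234 ± 0.0383 normalized RPKM, SD, n = 3) and Fgfr4 (0.200 ± 0.0278) overlapped. As a share of the summed normalized RPKM of the 4 receptors, which does not depend on scaling between libraries, Fgfr3 took 10.8%, 11.5% and 10.5% in the BAP1 KO-labelled libraries and 0.767%, 0.588% and 0.608% in the WT-labelled ones. Fgfr1 took 74.4% ± 0.425 (SD, n = 3) against 84.5% ± 0.509. The differences were 10.3 percentage points for Fgfr3 and -10.1 for Fgfr1, each at p = 0.10 in the two-sided exact permutation test, the smallest p that 3 against 3 libraries allow. Fgfr2 held 14.5% ± 0.143 against 14.3% ± 0.350, a difference of 0.181 percentage points that did not exceed the spread between libraries (exact permutation p = 0.70) and that changed sign without WT replicate 3 (-0.00616). Fgfr4 took 0.191% ± 0.0468 against 0.561% ± 0.0928 (exact permutation p = 0.10). Its share under the BAP1 KO label rests on only 4, 6 and 3 reads, so this difference carries little weight.

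**Figure D2:**
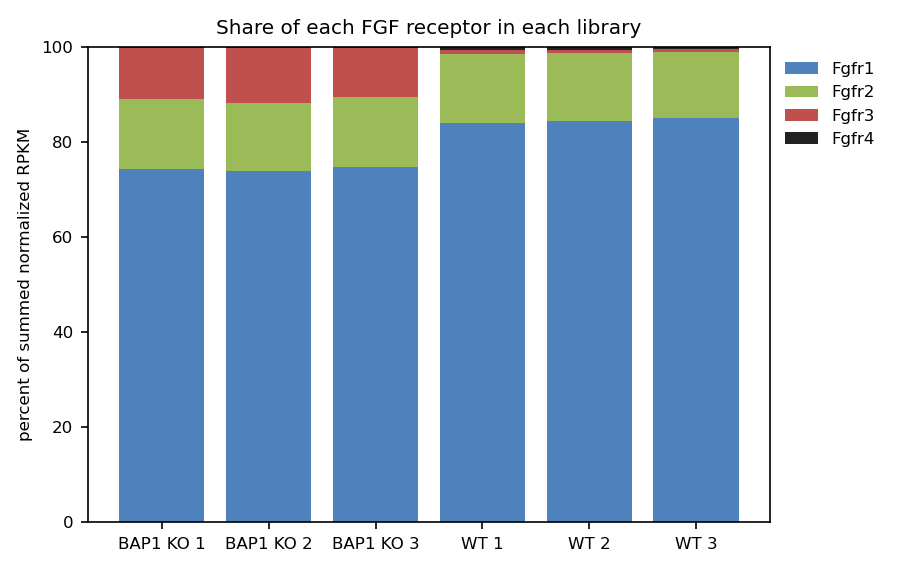
Percent of the summed normalized RPKM of the 4 FGF receptors taken by each receptor (stacked bars from 0 to 100) in each of the 6 libraries. The Fgfr3 part is 10.5% to 11.5% in the BAP1 KO-labelled libraries and 0.588% to 0.767% in the WT-labelled ones, while the Fgfr2 part is similar in all 6.

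Fgfbp1, which carries FGFs away from the matrix to their receptors and is made by keratinocytes (gene ID 14181, chromosome 5, 43978858 to 43981828), was the most abundant of the secreted proteins on the list. Its level was 4.51, 4.29 and 4.35 normalized RPKM in the BAP1 KO-labelled libraries and 25.4, 25.4 and 27.4 in the WT-labelled ones. The values within each label agreed closely and the labels stood far apart, at 6.07-fold (log2 -2.60, SE 0.059, edgeR adjusted p = 1.57e-11). Keratinocyte markers moved the same way in these libraries, with a median of -4.13, but a link to Fgfbp1 was not tested.

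Ligand transcripts were scarce, and no ligand among the 10 genes was above 2.19 normalized RPKM in any library. Fgf1, which can bind every FGF receptor (gene ID 14164, chromosome 18, 38838672 to 38929470), was the highest of the 5 ligands under both labels. It was read at 1.51, 1.58 and 1.64 normalized RPKM in the BAP1 KO-labelled libraries and at 2.15, 2.19 and 2.07 in the WT-labelled ones, a small gap with no overlap. The log2 fold change was -0.47 (SE 0.071, edgeR adjusted p = 1.07e-04).

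Fgf7, the keratinocyte growth factor (gene ID 14178, chromosome 2, 126034658 to 126091185), stood next in order. Its values were 0.926, 1.15 and 0.982 normalized RPKM in the BAP1 KO-labelled libraries and 1.58, 1.73 and 1.37 in the WT-labelled ones. The log2 fold change was -0.64 (SE 0.13, edgeR adjusted p = 9.28e-04). The markers of fibroblasts, a cell type that makes FGF7, were lower in the same libraries with a median of -2.80. Whether Fgf7 followed them was not tested.

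Fgf2, the melanocyte mitogen (gene ID 14173, chromosome 3, 37348477 to 37410106), was read from only 26, 37 and 31 reads in the BAP1 KO-labelled libraries and 38, 54 and 47 in the WT-labelled ones. These correspond to 0.520, 0.641 and 0.638 normalized RPKM against 0.795, 1.02 and 0.836. The lowest WT-labelled library was thus close above the highest BAP1 KO-labelled one. The log2 fold change was -0.59 (SE 0.19, edgeR adjusted p = 0.0134), and the call was lost with DESeq2 (adjusted p = 0.0763), without BAP1 KO replicate 1 (0.0579) and without WT replicate 2 (0.0684), within a range of 0.00719 to 0.0763 over all alternatives. Of the Fgf2 exon bases in GENCODE M21, 9.44% overlap the antisense gene Nudt6 and 3.76% overlap Gm43439 on the same strand. The gene model behind the deposited counts is not known, and the CPM and RPKM of Fgf2 imply that it was shorter than these exons. The level of Nudt6 did not pass the test between the labels (2.94 ± 0.0831 against 2.91 ± 0.240 normalized RPKM, SD, n = 3). Its log2 fold change was -0.02 (edgeR adjusted p = 0.847). Without strand, reads of the stretch shared with Nudt6 cannot be told apart.

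Fgf18, a ligand with roles in bone and the hair follicle (gene ID 14172, chromosome 11, 33116970 to 33147400), was barely read in the BAP1 KO-labelled libraries. It drew 5, 3 and 7 reads in the BAP1 KO-labelled libraries and 54, 75 and 115 in the WT-labelled ones. Per length these are 0.0747, 0.0388 and 0.108 against 0.844, 1.06 and 1.53 normalized RPKM, so the WT-labelled libraries also differed widely among themselves. The log2 fold change was -4.00 (SE 0.36, edgeR adjusted p = 1.64e-06); as the gene passed the filter through the WT-labelled libraries alone, its call was largely fixed in advance. Fgf5 (gene ID 14176, chromosome 5, 98254184 to 98277033) drew 13 to 17 reads in the BAP1 KO-labelled and 16 to 18 in the WT-labelled libraries. Its log2 fold change of -0.24 (95% interval -0.76 to 0.29, edgeR adjusted p = 0.453) did not pass the test, and its interval includes a change of the size seen for Fgf7.

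Per length, the ligands ranked Fgf1, Fgf7, Fgf2, Fgf5 and Fgf18 under the BAP1 KO label, where Fgf5 and Fgf18 overlapped. Under the WT label Fgf18 stood in the third place, and its values overlapped those of Fgf7 above it and of Fgf2 below it.

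**Figure D3:**
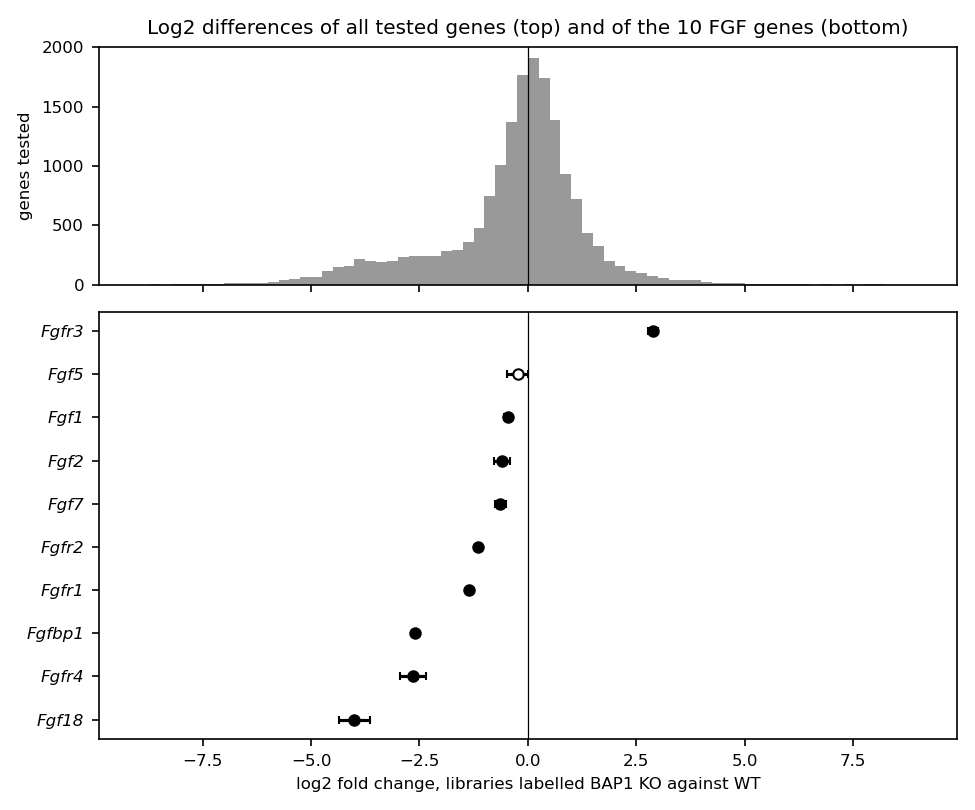
Top, number of genes tested by log2 fold change (horizontal axis, libraries labelled BAP1 KO against WT, bins of equal width); bottom, the log2 fold change of each of the 10 genes with its SE, the open point being Fgf5, which did not pass the test. The genes run from -4.00 for Fgf18 to 2.90 for Fgfr3, within the span of all 17121 genes tested.

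For the receptor and the ligand with the highest mean level, the genes of most similar pattern were taken by the Euclidean distance of centred log2 CPM over the 6 libraries. Gtse1, Hip1r and Slc7a7 lay nearest to Fgfr1, at distances of 0.0459, 0.0578 and 0.0687, and Rnf24, Bphl and Tcp1 nearest to Fgf1, at 0.0655, 0.0657 and 0.0671. Such nearness was common: 625 of 12040 genes lay within 0.5 of Fgfr1 and 2712 within 0.5 of Fgf1.

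Among the other FGF ligands, the intracellular homologues Fgf11 and Fgf13, which do not act through the receptors, were higher in the BAP1 KO-labelled libraries. Fgf11 stood at 3.94 ± 0.296 against 1.48 ± 0.0668 normalized RPKM (SD, n = 3; log2 1.39, SE 0.081, edgeR adjusted p = 3.97e-08), and in the BAP1 KO-labelled libraries it was above every ligand among the 10 genes. Fgf13 stood at 0.754 ± 0.00483 against 0.412 ± 0.0278 (log2 0.84). Of 17 further ligands, 6 passed the count filter, with 3 higher and 2 lower, and Fgf22 did not pass the test. Over all genes tested 39.4% were higher and 42.1% lower, so these counts say little by themselves. Chosen after their values were seen, the other called ones were Fgf10, with 45 reads over the BAP1 KO-labelled libraries against 7, and Fgf9 and Fgf16, with 36 and 10 reads against 101 and 134. These 3 passed the filter only through the label in which they are high, so their calls carry little weight. Fgf4 and Fgf6 had 0 reads in all 6 libraries.

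Binding partners of the receptors at the cell surface went both ways. Of 7 tested, 5 were lower and 2 higher (median -1.72), where 42.1% and 39.4% of all genes tested were. The median was -0.71 with no count filter, when 9 were tested. Il17rd, an inhibitor of FGF signalling, stood at 1.08 ± 0.0897 normalized RPKM against 6.31 ± 0.169 (SD, n = 3; log2 -2.58). Flrt2 and Flrt3, membrane proteins that bind FGF receptors, were lower at -2.58 and -1.76, and the binding protein Fgfbp3 at -1.72. Chosen after their values were seen, the members that were higher were Flrt1 (0.95) and Ncam1 (0.57), and the decoy receptor Fgfrl1 was lower at -0.75. The klothos Kl and Klb drew too few reads to be tested.

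Heparan sulfate genes went both ways, 14 lower and 5 higher of 20 (median -0.71), beside 42.1% lower and 39.4% higher over all genes tested. Gpc3, among the lower genes, passed the count filter only through the WT-labelled libraries. The syndecan Sdc1, a core protein abundant in epidermis, fell from 547 ± 13.7 to 20.3 ± 0.692 normalized RPKM (SD, n = 3; log2 -4.79). The glypican Gpc2 (-4.85), the sulfatase Sulf1 (-3.50) and Sdc4 (-2.00) were lower too. The 5 that were higher, named after their values were seen, were the core proteins Sdc3 (0.999), Gpc1 (0.95) and Gpc6 (0.35) and the sulfotransferases Ndst1 (0.17) and Ndst2 (0.19). Sdc3 and Gpc1 were the most abundant of the syndecans and glypicans in the BAP1 KO-labelled libraries, at 129 ± 5.30 and 109 ± 5.73 normalized RPKM.

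All 10 adaptors and relay enzymes were higher in the BAP1 KO-labelled libraries, by a median of 0.33, but 8 of the 10 when counts were scaled by library totals alone or when at least 5 CPM was required in 3 libraries, and 9 at an adjusted p under 0.01. The docking protein Gab1 stood at 22.04 ± 0.379 normalized RPKM against 9.99 ± 0.269 (SD, n = 3; log2 1.11), the adaptor Shc1 at 29.2 ± 0.594 against 13.3 ± 0.859 (log2 1.10). The RAS activator Sos1 (0.61) and phospholipase C gamma, Plcg1 (0.57), followed. Over all genes tested 39.4% were higher.

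Genes listed as induced by FGF signalling, most of them as its inhibitors, did not move as a block: 7 of 11 were lower and 3 higher (median -0.83). Whether each listed gene, Sh2b3 among them, answers to FGF in these cells was not tested. The 10 called of 11 stand beside 81.5% called over all genes tested, 42.1% lower and 39.4% higher. The ETS factor Etv4 stood at 0.772 ± 0.0205 normalized RPKM against 10.9 ± 1.02 (SD, n = 3; log2 -3.85), and Etv5 was lower at -2.37. The RAS pathway inhibitors Spred3 (-2.40) and Spry4 (-1.77) were lower too. Higher, and named here outside the rule once their values had been seen, were Sh2b3 (1.32), Spry1 (1.18) and the ERK phosphatase Dusp6 (0.22). These genes also answer to other receptors that signal through ERK.

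**Figure D4:**
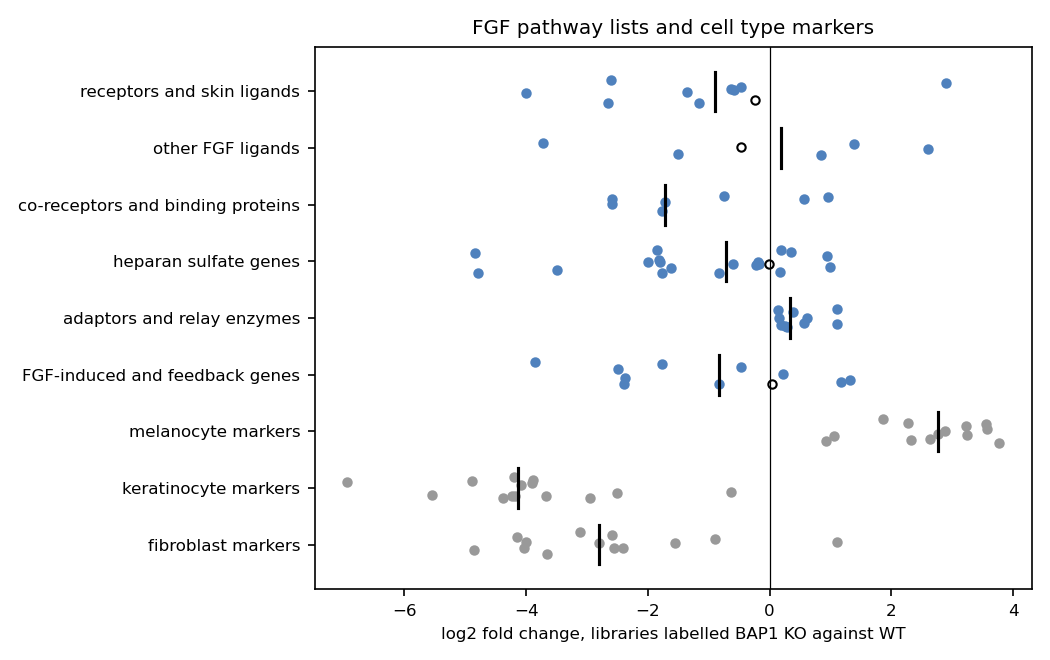
Log2 fold change of each tested gene (horizontal axis, libraries labelled BAP1 KO against WT) in the FGF lists and in marker lists of 3 cell types; filled points passed the test, open points did not, and the vertical bars are medians. The adaptors all lie above 0 with a median of 0.33, and the keratinocyte markers all lie below 0 with a median of -4.13.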

How the data were processed

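Single-end reads of 50 bases from polyA RNA (TruSeq kit without strand marking, per the labels) were aligned by the authors; GSNAP and GRCm38 are named per the submitters' processing notes. No version, counter or annotation is named there. The deposited counts are, per the file headers, uniquely aligned reads of each gene model, and the deposited RPKM values carry a size factor. Counts were used for every fold change and RPKM for levels between genes and receptor shares. Gene IDs took symbols from the RefSeq table of GRCm38.p6 (31049 of 36528 matched).

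Genes were kept by edgeR's filterByExpr (minimum count 10, minimum total 15), given TMM factors of 0.975 to 1.03, and fitted in edgeR 4.0.16 under R 4.3.3 (glmQLFit, glmQLFTest). Adjusted p-values are Benjamini-Hochberg over all 17121 genes tested, called under 0.05; SE is |log2 fold change| divided by the root of F. Replicates differed by more than counting noise (2.01 to 17.4 chi-square units per degree of freedom). Exon overlaps were computed from GENCODE M21, and receptor shares were compared with SciPy 1.17.1. The code was tested on simulated data.

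The members, lists and rules were chosen with earlier results of these data known. Named genes are the 10 members, Bap1, up to 4 called genes per pathway list by absolute log2 fold change reaching 2 CPM in either group, and the 3 genes nearest in pattern to the most abundant receptor and ligand. Alternatives were other library scalings, other count filters, DESeq2 1.42.0, limma-voom, edgeR's robust option, an adjusted p under 0.01, and leaving out each library; scaling by the authors' library factors was added after the data were seen. Each group holds 3 libraries.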

Additional observations from a re-analysis of the deposited data

How the results depend on the processing

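The direction of all 10 genes was kept in every alternative in which they were tested, and Fgfr3 was the single gene higher in all 16. The count of lower genes stayed at 7 or 8 except with at least 5 CPM required in 3 libraries, where only 5 of the genes could be tested and 4 of them were lower. Fgf2 lost its call with DESeq2, at an adjusted p under 0.01 and without BAP1 KO replicate 1 or WT replicate 2. The share of Fgfr2 among the receptors, which did not differ beyond the spread, ran from -0.00616 to 0.340 percentage points when single libraries were left out. No scaling moved the median of all genes by more than the -0.0612 (log2) of library totals. No paired analysis was possible because the labels carry no replicate numbers. Depth limits Fgfr4, Fgf18, Fgf2 and Fgf5 most, since each was read from few reads.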

Other observations

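Of the ligands with too few reads for the test, 3 drew at least 20 reads over the libraries of a label, and they were chosen after their values were seen. Fgf15, a hormone of the gut in adult animals, had 0 reads in the BAP1 KO-labelled libraries and 7, 4 and 13 in the WT-labelled ones. For a count of 0, 3 reads over the group served as an approximate upper limit, and the WT-labelled reads were taken as exact. On that basis Fgf15 would be at least 8.14-fold lower, which is not a hard bound. A choice by the reads under a label also favours genes that differ. Fgf21, a hormone made in liver, had 0, 0 and 2 reads against 15, 9 and 14. Fgf17 went the other way, with 4, 10 and 14 reads in the BAP1 KO-labelled libraries and 2, 3 and 2 in the WT-labelled ones. The limit for Fgf15 covers only counting error of its BAP1 KO-labelled reads, and none of these 3 genes was tested.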
